A study of Mus musculus with 6 samples.

Results

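The genes described here carry the integrated stress response and the unfolded protein response, 2 linked programs by which a cell meets a shortage of amino acids or heme and an excess of unfolded protein in the endoplasmic reticulum (ER). They are 36 of the 29267 genes of the deposited tables, taken by symbol from a named list, and all 36 were found. The list holds 5 stress sensors, the transcription factors Atf4 and Xbp1, 12 targets of ATF4, the constitutive eIF2alpha phosphatase subunit Ppp1r15b, 13 ER chaperones and folding enzymes, and 3 genes of ER-associated degradation. A filter on low counts passed 35 of them; the ATF4 target Atf3, with 10 counts over the D2 libraries and 27 over the NSC libraries, was not tested.

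RNA sequencing was done on mouse neural stem cells at passage 8, of a strain labelled OG2, a transgenic line with a fluorescent reporter driven by the Pou5f1 promoter. The cells were either differentiated, under a label that reads D2, or kept as neural stem cells, labelled NSC. In each state 1 library came from cells with naloxone, an opioid receptor antagonist, 1 from cells given DAMGO, which activates the mu opioid receptor, and 1 from control cells without either ligand. Each of the 6 groups held 1 library, so the 3 ligand conditions stood in for replicates of a state, and the SDs below are over those 3 libraries. Nothing in the labels tells if separate cultures were used, so a p-value here reflects just the scatter among 6 libraries, which may be technical. Doses, exposure times and the differentiation medium are not described in the labels. The stated subject of the series is the effect of naloxone on how such cells proliferate and differentiate.

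As background, stress kinases phosphorylate the translation factor eIF2alpha, which lowers protein synthesis in general while translation of ATF4 goes up. ATF4 then raises genes of amino acid synthesis and transport and regulators such as CHOP. In the ER, the sensors PERK, IRE1 and ATF6 respond to unfolded protein: PERK acts through eIF2alpha and ATF4, and ATF6 and the spliced form of XBP1 raise chaperones and degradation factors. ATF4 activity is set largely by translation and that of XBP1 by splicing, and gene-level RNA counts show neither, so the values below are transcript levels only.

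Many of these genes have known binding elements upstream of their start, and some of those found here are printed for ATF4 targets and ER chaperones. Only part of each list held its element. RefSeq promoter windows (GRCm38.p6) were matched for 32 of the 36 genes; Atf6, Hyou1, Manf and Ppp1r15b were not matched. The 250 bases upstream of each start were searched on both strands. The first motif was the C/EBP-ATF response element, the site of ATF4, as TGATGNAA. The second was the ER stress response element, the site of ATF6 with NF-Y, as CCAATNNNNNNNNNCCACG. The ATF4 element was found in 4 of 12 ATF4 targets (Asns, Chac1, Nupr1 and Atf3), in 0 of 11 matched chaperones and in the degradation gene Herpud1, against 3.91% of all 27025 genes with a window. The ER stress element was found in 7 of 11 matched chaperones, with 2 matches upstream of Hsp90b1, in 0 of 12 ATF4 targets, and in 35 of the 27025 genes, or 0.13%. Capitals mark the match, which reads on the opposite strand in Chac1, Nupr1, Calr, Creld2 and the second match of Hsp90b1, and each sequence runs 5′ to 3′ on the strand of its gene. In Asns, Nupr1 and Hspa5 the match lies in bases that GENCODE marks as untranslated region of a transcript, so a shorter stretch is given.
Asns (chr6:7693214-7693243, minus strand, ATF4 element): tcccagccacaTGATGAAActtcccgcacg
Chac1 (chr2:119351024-119351081, plus strand, ATF4 element): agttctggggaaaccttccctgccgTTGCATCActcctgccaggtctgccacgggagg
Nupr1 (chr7:126625562-126625591, minus strand, ATF4 element): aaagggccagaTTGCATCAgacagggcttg
Hspa5 (chr2:34772020-34772048, plus strand, ER stress element): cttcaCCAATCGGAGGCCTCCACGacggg
Hsp90b1 (chr10:86705508-86705681, minus strand, ER stress element): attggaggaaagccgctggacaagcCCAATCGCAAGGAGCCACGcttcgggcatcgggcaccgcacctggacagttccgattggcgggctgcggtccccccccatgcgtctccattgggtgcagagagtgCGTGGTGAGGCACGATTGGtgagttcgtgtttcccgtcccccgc
Canx (chr11:50325775-50325843, minus strand, ER stress element): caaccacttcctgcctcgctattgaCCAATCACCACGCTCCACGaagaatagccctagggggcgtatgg
Dnajc3 (chr14:118937802-118937870, plus strand, ER stress element): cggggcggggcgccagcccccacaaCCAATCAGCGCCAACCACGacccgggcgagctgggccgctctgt
Calr (chr8:84847050-84847118, minus strand, ER stress element): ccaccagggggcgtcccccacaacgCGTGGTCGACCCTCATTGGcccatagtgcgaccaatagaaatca
Pdia6 (chr12:17266466-17266534, plus strand, ER stress element): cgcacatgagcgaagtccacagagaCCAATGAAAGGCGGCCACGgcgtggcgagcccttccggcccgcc
Creld2 (chr15:88819495-88819563, plus strand, ER stress element): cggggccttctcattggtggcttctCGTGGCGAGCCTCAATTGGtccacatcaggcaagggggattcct

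Herpud1 also held the compact ER stress element ATTGGNCCACG, found in 0.037% of all genes. The XBP1 element TGACGTGG was found in 0 of the 32 genes and in 0.603% of all genes, and the cyclic AMP element TGACGTCA was found upstream of Ppp1r15a and in 1.77% of all genes. No match overlapped a match of another motif. A match is a description of these letters and not evidence of binding.

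The libraries held 8417074 to 10218353 expected counts in D2 and 9112916 to 13561237 in NSC. All 6 proliferation markers listed fell, to a summed 321 to 362 CPM (TMM-scaled counts relative to library size) in D2, against 4001 to 4043 CPM in NSC, and all 9 astrocyte markers rose. Of 10 neural stem cell markers, 3 fell and 7 rose; Nes averaged 405 ± 8.68 CPM in D2 and 1837 ± 16.5 CPM in NSC, and Sox2 averaged 585 ± 42.2 CPM in D2 and 378 ± 11.9 CPM in NSC (SD, n = 3 each). Markers of microglia summed to 0.226 to 0.392 CPM in D2 and 1.42 to 2.09 CPM in NSC, with Cx3cr1, C1qa and C1qb at 0 in all 6 libraries, and those of fibroblasts and pericytes summed to 19.0 to 36.4 CPM in D2 and 1.87 to 12.3 CPM in NSC. Of 9 oligodendrocyte lineage markers tested, 8 rose and 1 fell. Of 7 neuron markers tested, 3 rose and 3 fell, from Tubb3 (log2 fold change 3.13) to Gap43 (-3.48). Every difference between D2 and NSC below thus moves with the loss of proliferation transcripts, the gain of glial ones and mixed changes of neuron ones. Their part in these differences was not tested. In bulk RNA, fewer cells of a type and less RNA per cell cannot be told apart.

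In D2 the ATF4 targets Trib3, Chac1, Nupr1 and Asns and the abundant ER chaperone Hsp90b1 fell against NSC, with log2 fold changes between -1.50 and -3.13, while the central chaperone Hspa5 did not pass the test (log2 fold change -0.01). In an additive edgeR model of state and ligand (quasi-likelihood test, Benjamini-Hochberg adjustment over 13216 genes, threshold 0.05), 12 of the 35 genes tested rose in D2 and 17 fell. Of all genes tested, 40.0% rose and 39.8% fell, so the share of these genes that changed, 82.9%, was near the 79.8% of all genes. Their median log2 fold change was -0.17, beside 0.00 over all genes tested. ATF4 targets and ER chaperones each held 6 genes that fell and 3 that rose, of 11 and 13 tested.

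**Figure D1:**
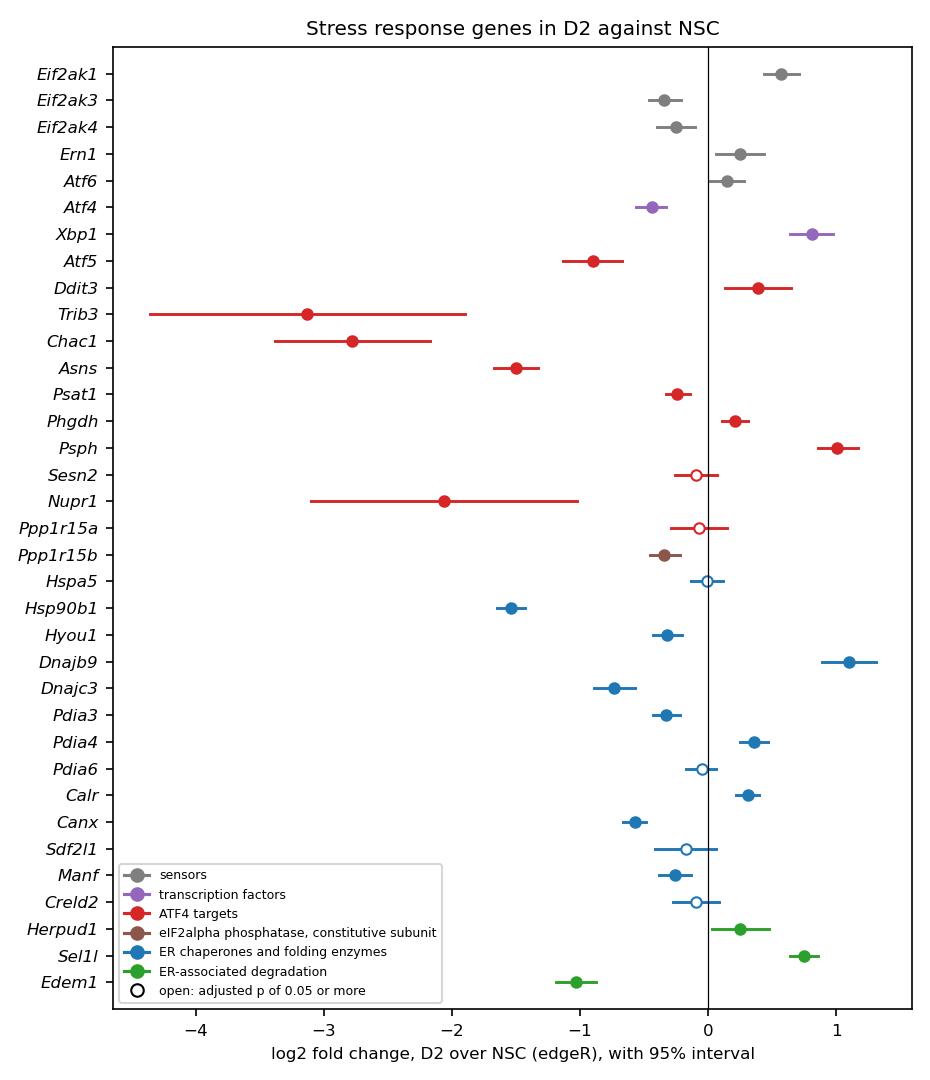
Each point is the edgeR log2 fold change of a gene in D2 over NSC, on a linear axis of log2 units, with its 95% interval as a bar; colours mark the role and open points did not pass an adjusted p of 0.05. The largest falls were those of Trib3 (-3.13), Chac1 (-2.78), Nupr1 (-2.06), Hsp90b1 (-1.54) and Asns (-1.50), and the largest rises those of Dnajb9 (1.10) and Psph (1.01).

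Among the sensors, the clearest rise was that of Eif2ak1, which encodes HRI, the kinase that responds to lack of heme. It had 115, 113 and 107 CPM in D2 (naloxone, DAMGO, control), against 74.5, 71.3 and 79.0 CPM in NSC. All 3 D2 libraries lay above all 3 NSC libraries, and the log2 fold change was 0.57 (SE 0.06, edgeR adjusted p = 2.68e-06). Of the exonic bases of Eif2ak1, 11.6% lie opposite Aimp2 and Ankrd61. The library kit does not mark strand, so its counts may hold reads of those genes. Eif2ak3, which encodes the ER kinase PERK, fell to 63.8, 62.2 and 63.6 CPM in D2, against 77.9, 81.3 and 80.5 CPM in NSC (log2 fold change -0.34, SE 0.06, edgeR adjusted p = 1.91e-04). Eif2ak4, which encodes the amino acid sensor GCN2, averaged 40.7 ± 2.36 CPM in D2 and 48.5 ± 1.16 CPM in NSC (SD, n = 3 each), and its fall of -0.25 had an edgeR adjusted p of 5.37e-03. This call was lost with DESeq2 (adjusted p = 0.0648) and on TPM with limma (adjusted p = 0.622).

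The other 2 ER sensors differed by less. Ern1, which encodes IRE1, averaged 26.3 ± 0.566 CPM in D2 and 22.2 ± 1.45 CPM in NSC (SD, n = 3 each; log2 fold change 0.25, SE 0.09, edgeR adjusted p = 0.0193). Atf6, the membrane-bound sensor cleaved in the Golgi, averaged 71.1 ± 5.94 CPM in D2 and 64.1 ± 1.83 CPM in NSC (log2 fold change 0.15, SE 0.06, edgeR adjusted p = 0.043). The Atf6 call was lost when any 1 of the 6 libraries was left out (edgeR adjusted p 0.0582 to 0.211), and that of Ern1 without either naloxone library or either DAMGO library (0.0573 to 0.0925). Both were also lost with DESeq2, at adjusted p = 0.186 for Ern1 and 0.229 for Atf6.

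Atf4 and Xbp1, the transcription factors of the ATF4 and IRE1 branches, went in opposite directions. Atf4 (chromosome 15, 80255184 to 80257541, mm10) fell to 145, 156 and 163 CPM in D2 with naloxone, DAMGO and control, against 208, 207 and 214 CPM in NSC. The highest D2 library lay well under the lowest NSC library, and the log2 fold change was -0.44 (SE 0.05, edgeR adjusted p = 7.67e-06). Xbp1 (chromosome 11, 5520659 to 5525893) rose to 46.1, 48.4 and 42.5 CPM in D2, against 25.0, 26.2 and 26.7 CPM in NSC, with a log2 fold change of 0.81 (SE 0.08, edgeR adjusted p = 1.24e-06). The counts do not separate its spliced from its unspliced transcript.

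Of the 8 ATF4 targets that are not enzymes of amino acid synthesis, 4 fell, 1 rose, 2 did not pass the test and Atf3 was not tested. Their median log2 fold change was -0.90 over the 7 tested. Without the NSC naloxone library it was -0.04, over 5 genes, as Trib3 and Nupr1 then fell below the count filter, and without the NSC control library, where Nupr1 did, it was -0.53. Trib3, a pseudokinase induced late in the response and an inhibitor of ATF4, had 2, 4 and 0 counts in D2 with naloxone, DAMGO and control, against 31, 20 and 16 counts in NSC. It was near the detection limit in D2, where 3 counts are 0.294 to 0.356 CPM, and the ratio of its depth-scaled counts was 0.108, with an exact 95% counting interval of 0.0383 to 0.248 (edgeR log2 fold change -3.13, SE 0.56, adjusted p = 2.58e-04). The fitted value depends on single libraries: with 1 library left out it ran between -3.99 without the NSC DAMGO library, nearly reached without the D2 DAMGO library, and -2.66 without the D2 control library, and without the NSC naloxone library Trib3 was not tested. Chac1, an enzyme that degrades glutathione, had 10, 6 and 9 counts in D2, against 78, 53 and 77 in NSC. Its averages were 0.914 ± 0.253 CPM in D2 and 6.29 ± 0.847 CPM in NSC (SD, n = 3 each; log2 fold change -2.78, SE 0.28, edgeR adjusted p = 1.54e-06). Nupr1, a small stress-induced nuclear protein, had 5, 1 and 4 counts in D2 and 26, 12 and 15 in NSC, with a log2 fold change of -2.06 (SE 0.48, edgeR adjusted p = 1.72e-03).

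No library of one state reached the other for any of these 3 genes. All were rare in both states, with mean TPM (a per-length scale of transcript abundance) of 0.370, 1.27 and 1.49 in D2 and 3.22, 8.70 and 4.40 in NSC for Trib3, Chac1 and Nupr1. Atf5, a relative of ATF4 with a role in mitochondrial stress, was more abundant and fell to 20.1, 28.4 and 28.2 CPM in D2 with naloxone, DAMGO and control, against 47.9, 44.3 and 50.0 CPM in NSC (log2 fold change -0.90, SE 0.10, edgeR adjusted p = 5.73e-06). Ddit3, which encodes the pro-apoptotic factor CHOP, went the other way, with 14.3, 13.9 and 13.8 CPM in D2 and 9.91, 11.6 and 10.7 CPM in NSC. Its rise of 0.39 (SE 0.12, edgeR adjusted p = 9.81e-03) was lost without either naloxone library (0.0676 without the NSC one, 0.0686 without the D2 one) and with DESeq2 (adjusted p = 0.131), and 10.9% of its exonic bases overlap other genes.

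Sesn2, a stress-induced inhibitor of mTORC1, averaged 76.8 ± 6.83 CPM in D2 and 81.6 ± 5.23 CPM in NSC (SD, n = 3 each), and the 2 states overlapped. Its log2 fold change of -0.09 had a 95% interval of -0.26 to 0.07, and it passed the test only without the NSC DAMGO library (-0.19, edgeR adjusted p = 0.0469). Ppp1r15a, which encodes GADD34, the inducible phosphatase subunit that reverses eIF2alpha phosphorylation, averaged 16.8 ± 0.160 CPM in D2 and 17.6 ± 0.642 CPM in NSC (log2 fold change -0.07, 95% interval -0.29 to 0.15). Its constitutive counterpart Ppp1r15b fell to 119 ± 2.64 CPM in D2, against 151 ± 4.34 CPM in NSC (log2 fold change -0.34, SE 0.05, edgeR adjusted p = 7.07e-05). Atf3, an early-response factor, had 3, 2 and 5 counts in D2 with naloxone, DAMGO and control, against 12, 4 and 11 in NSC.

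The 4 enzymes of serine and asparagine synthesis all changed, 2 up and 2 down. Asns (chromosome 6, 7675169 to 7693254), asparagine synthetase, fell to 28.0, 25.0 and 28.4 CPM in D2, against 72.8, 80.4 and 77.9 CPM in NSC, a log2 fold change of -1.50 (SE 0.08, edgeR adjusted p = 3.15e-09). Psph (chromosome 5, 129765558 to 129787449), the phosphatase of the last step to serine, rose to 75.5, 75.9 and 87.0 CPM in D2, against 39.6, 39.6 and 38.6 CPM in NSC (log2 fold change 1.01, SE 0.07, edgeR adjusted p = 5.29e-08). In both genes the 2 groups of libraries were far apart. The library kit does not mark strand and 10.4% of the exonic bases of Psph lie opposite Cct6a, so its counts may hold reads of that gene.

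The first 2 enzymes of the serine pathway moved little and in opposite directions. Phgdh, the first enzyme, had 454, 489 and 457 CPM in D2 with naloxone, DAMGO and control, and 397, 412 and 400.1 CPM in NSC (log2 fold change 0.21, SE 0.04, edgeR adjusted p = 8.87e-04). Psat1, the next enzyme, had 518, 506 and 499 CPM in D2 and 594, 600.5 and 603 CPM in NSC (log2 fold change -0.24, SE 0.04, edgeR adjusted p = 3.00e-04). On the per-length scale these were the most abundant ATF4 targets, at 559 TPM for Phgdh and 448 TPM for Psat1 in D2 and 479.7 and 531 TPM in NSC. Of the 4 ATF4 targets with an ATF4 element in their window, Asns, Chac1 and Nupr1 fell and Atf3 was not tested; Herpud1, which also has the element, rose.

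**Figure D2:**
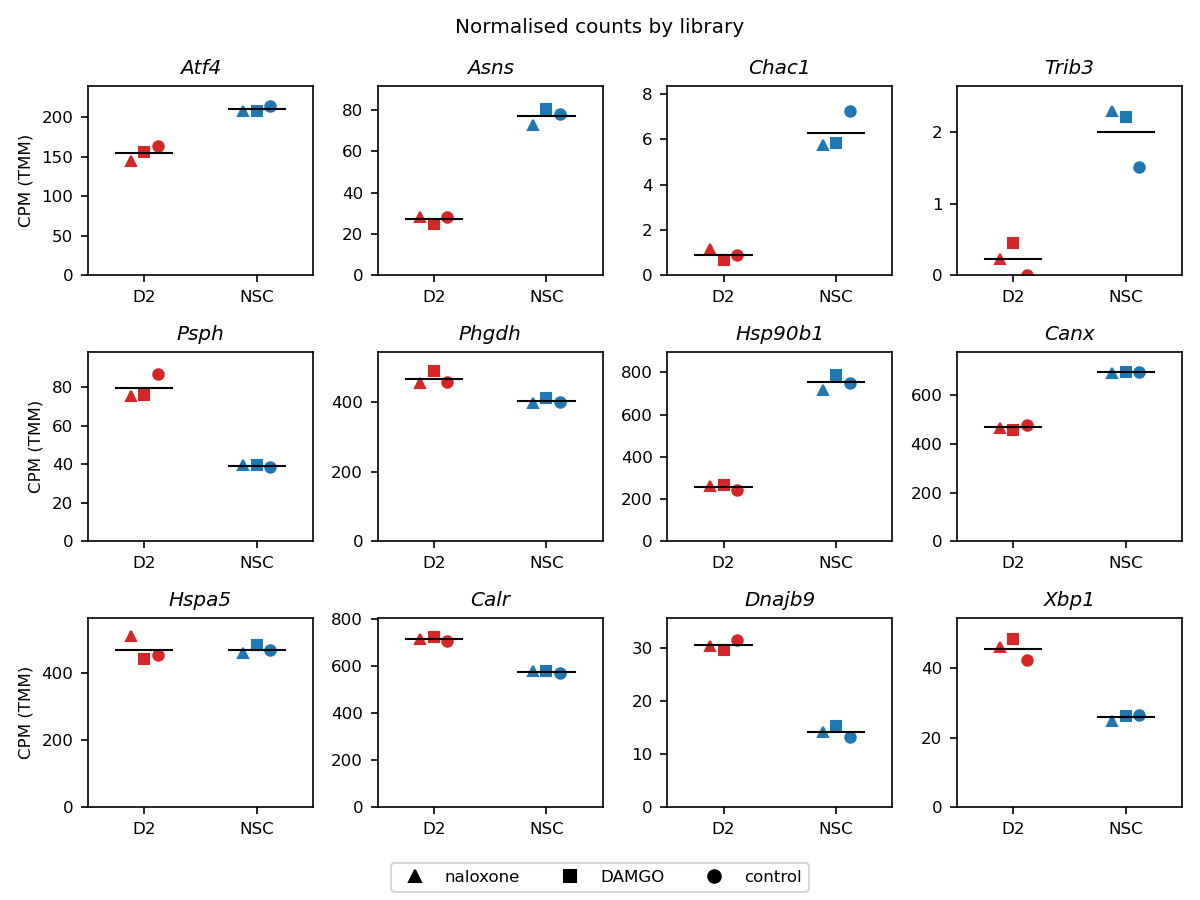
Each panel gives the TMM-normalised CPM of a gene in the 3 D2 libraries (red, left) and the 3 NSC libraries (blue, right), with naloxone as triangles, DAMGO as squares and control as circles, a line at the mean and an axis that starts at 0. The libraries of a state lie close together. Among these 12 genes, picked as examples, the states overlap only for Hspa5, with 441 to 509 CPM in D2 and 460.3 to 482 CPM in NSC. Of the genes not drawn, Sesn2, Pdia6, Sdf2l1, Creld2 and the untested Atf3 also overlap. Overlap was not counted over all genes, of which 79.8% passed the edgeR threshold.

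The ER chaperones changed unevenly around a level Hspa5. Hspa5 (chromosome 2, 34771970 to 34777547) encodes BiP, the main ER chaperone and the usual readout of the unfolded protein response. It had 509, 441 and 455 CPM in D2 with naloxone, DAMGO and control, and 460.3, 482 and 467 CPM in NSC. The D2 values enclosed the NSC values, and the log2 fold change was -0.01, with a 95% interval of -0.13 to 0.12 (edgeR adjusted p = 0.931).

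Hsp90b1 (chromosome 10, 86690209 to 86705509) encodes GRP94, the HSP90 of the ER, which folds integrins and Toll-like receptors among other clients. It fell to 264, 268 and 244 CPM in D2, against 717, 788 and 752 CPM in NSC. No D2 library came near the lowest NSC library, and the log2 fold change was -1.54 (SE 0.05, edgeR adjusted p = 5.26e-11). Part of its reads could be shared with other genes, since 15.7% of its exonic bases overlap another gene and its expected counts were not whole. Dnajb9, a BiP cochaperone that restrains IRE1, moved most in the other direction, to 30.2, 29.6 and 31.4 CPM in D2, against 14.1, 15.3 and 13.2 CPM in NSC (log2 fold change 1.10, SE 0.10, edgeR adjusted p = 5.07e-07).

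The lectin chaperones calreticulin and calnexin, which hold newly made glycoproteins, diverged. Calr, the soluble one, rose to 713, 723 and 708 CPM in D2 with naloxone, DAMGO and control, against 579.8, 579.8 and 570 CPM in NSC (log2 fold change 0.31, SE 0.04, edgeR adjusted p = 2.33e-05). Canx, the membrane-bound one, fell to 466, 458 and 475 CPM in D2, against 689.8, 693 and 692 CPM in NSC (log2 fold change -0.57, SE 0.04, edgeR adjusted p = 1.15e-07). Both groups of libraries were tight, with SDs of 7.52 CPM in D2 and 5.65 CPM in NSC for Calr and 8.63 CPM in D2 and 1.82 CPM in NSC for Canx.

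The protein disulfide isomerases, which form and rearrange disulfide bonds, gave 1 rise, 1 fall and 1 gene short of the threshold. Pdia4 rose to 199.5 ± 9.53 CPM in D2, against 156 ± 4.63 CPM in NSC (SD, n = 3 each; log2 fold change 0.36, SE 0.05, edgeR adjusted p = 3.17e-05). Pdia3, the partner of calnexin and calreticulin, fell to 394 ± 13.6 CPM in D2, against 494 ± 10.1 CPM in NSC (log2 fold change -0.33, SE 0.05, edgeR adjusted p = 4.02e-05). Pdia6 averaged 194 ± 5.10 CPM in D2 and 201 ± 8.63 CPM in NSC, with overlapping libraries and a log2 fold change of -0.05 (95% interval -0.17 to 0.06).

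Cofactors and smaller ER proteins mostly fell or did not pass the test. Dnajc3, a BiP cochaperone also known as an inhibitor of eIF2alpha kinases, fell to 58.4, 49.6 and 46.6 CPM in D2, against 83.9, 88.2 and 83.4 CPM in NSC (log2 fold change -0.73, SE 0.07, edgeR adjusted p = 1.65e-06). Hyou1, a nucleotide exchange factor of BiP, averaged 124 ± 0.827 CPM in D2 and 155 ± 1.48 CPM in NSC, a fall of -0.32 (SE 0.05, edgeR adjusted p = 1.15e-04). Manf, an ER-resident neurotrophic factor that binds BiP, averaged 88.9 ± 2.27 CPM in D2 and 106 ± 3.38 CPM in NSC, a fall of -0.26 (SE 0.06, edgeR adjusted p = 1.17e-03). Sdf2l1, a partner of ER J-proteins, and Creld2, an ER protein with a role in disulfide exchange, overlapped between the states, with log2 fold changes of -0.17 (95% interval -0.41 to 0.06) and -0.09 (-0.27 to 0.09).

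Of the 7 chaperones with an ER stress element in their window, Calr rose, Hsp90b1, Canx and Dnajc3 fell, and Hspa5, Pdia6 and Creld2 did not pass the test. Their median log2 fold change was -0.09, and that of the 4 matched chaperones without the element was 0.09.

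Set against each other as lists, both sums were lower in D2, and much of the larger difference in the chaperone sum was that of Hsp90b1. Summed over the 12 ATF4 targets, the level was 1199, 1240 and 1211 CPM in D2 with naloxone, DAMGO and control, against 1277, 1292 and 1290 CPM in NSC, a mean log2 ratio of -0.08 (SD 0.02 over the 3 ligand conditions). Summed over the 13 ER chaperones, it was 3112, 2990 and 2999 CPM in D2, against 3690, 3812 and 3744 CPM in NSC, a mean log2 ratio of -0.31 (SD 0.05). The D2 libraries lay below the NSC libraries in both sums. These sums rest on a few abundant genes: without Psat1, the ATF4 sum was slightly higher in D2 (mean log2 ratio 0.04, SD 0.05), and without Calr, the chaperone ratio was -0.45 (SD 0.07). Without Hsp90b1, a choice made after its value was seen, the chaperone sum averaged 2775 ± 65.9 CPM in D2 and 2996 ± 26.0 CPM in NSC (SD, n = 3 each), a mean log2 ratio of -0.11 (SD 0.05), close to that of the ATF4 targets.

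Per gene, the lists did not keep a fixed order. The median log2 fold change was -0.24 over the 11 ATF4 targets tested and -0.17 over the 13 chaperones, beside 0.00 over all genes tested. Without the NSC naloxone library the order turned, with -0.04 over the 9 ATF4 targets then tested, without Trib3 and Nupr1, and -0.17 over the chaperones. Within a library, the summed TPM of ATF4 targets over that of ER chaperones was 0.419, 0.446 and 0.436 in D2, against 0.374, 0.377 and 0.383 in NSC, so the ratio was higher in every D2 library. Without Hsp90b1 this no longer held: the ratio of summed CPM was then 0.421, 0.455 and 0.440 in D2 and 0.430, 0.427 and 0.431 in NSC, beside 0.385, 0.415 and 0.404 in D2 and 0.346, 0.339 and 0.345 in NSC with all genes. No test was made of these list values.

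The makeup of the chaperone pool differed between the states. Hsp90b1 held 6.54 to 7.32% of the summed chaperone TPM in D2 and 16.8 to 17.6% in NSC. Calr held 29.4 to 30.1% in D2 and 20.1 to 20.8% in NSC, and was the most abundant chaperone by TPM in all 6 libraries. Hspa5 held 12.7 to 14.1% in D2 and 11.2 to 11.5% in NSC. In order of mean TPM the leading genes were Calr (896), Hspa5 (401), Canx (345), Pdia3 (318) and Manf (261) in D2, and Calr (721), Hsp90b1 (606), Canx (534), Hspa5 (400.3) and Pdia3 (398) in NSC. In that order, Canx and Pdia3 in D2 and Hspa5 and Pdia3 in NSC did not differ beyond their spread over libraries.

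**Figure D3:**
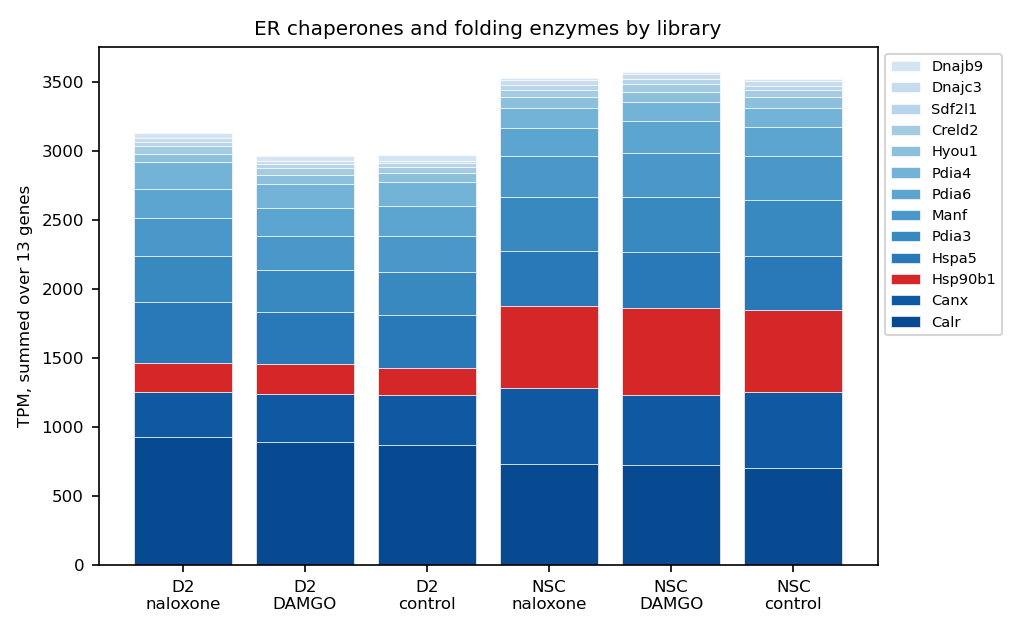
Stacked bars give the TPM of the 13 ER chaperones and folding enzymes in each library, D2 on the left and NSC on the right, on an axis that starts at 0. The segment of Hsp90b1, in red, is 194 to 217 TPM high in D2 and 592 to 630.3 TPM in NSC, while the segment of Calr at the bottom is 872 to 924 TPM in D2 and 706 to 735 TPM in NSC.

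The 3 genes of ER-associated degradation, which returns misfolded proteins to the cytosol for destruction, all changed. Sel1l, the adaptor of the ER ubiquitin ligase HRD1, rose to 289.9, 283 and 278 CPM in D2 with naloxone, DAMGO and control, against 173, 166 and 166 CPM in NSC (log2 fold change 0.75, SE 0.05, edgeR adjusted p = 2.63e-08). Edem1, a lectin that marks misfolded glycoproteins, fell to 27.3, 25.5 and 27.7 CPM in D2, against 56.5, 51.9 and 55.9 CPM in NSC (log2 fold change -1.03, SE 0.07, edgeR adjusted p = 4.95e-08). In neither gene did the states overlap. Herpud1, a stress-inducible component of the same complex, averaged 21.1 ± 0.996 CPM in D2 and 17.8 ± 1.51 CPM in NSC (SD, n = 3 each; log2 fold change 0.25, SE 0.10, edgeR adjusted p = 0.0403). That call was lost without either control library or either naloxone library (edgeR adjusted p 0.135 to 0.2) and with DESeq2 (0.241).

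Further genes of these pathways were read from lists drawn up beside the 36, against the same background of 40.0% rising and 39.8% falling. Of 28 other ATF4 and amino acid response genes tested, 19 fell and 7 rose, with a median log2 fold change of -0.75. The largest falls were those of Mthfd2, a mitochondrial folate enzyme, at 6.64 ± 0.210 CPM in D2 and 76.2 ± 2.06 CPM in NSC (log2 fold change -3.51), and of Slc7a1, an arginine transporter, at 22.7 ± 3.37 CPM in D2 and 233 ± 4.22 CPM in NSC (-3.35). Cbs, cystathionine beta-synthase, rose to 69.9 ± 2.59 CPM in D2, against 11.3 ± 0.550 CPM in NSC (2.63), and Slc6a9, a glycine transporter, to 115 ± 5.39 CPM in D2, against 22.5 ± 2.42 CPM in NSC (2.35; SD, n = 3 each). All 4 passed the edgeR test, the highest adjusted p being 1.07e-10.

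The remaining degradation genes mostly rose, as 14 of 17 tested did, with 1 fall and a median log2 fold change of 0.62. Os9, a lectin of the HRD1 complex, rose to 267 ± 5.03 CPM in D2, against 79.5 ± 5.38 CPM in NSC (SD, n = 3 each; log2 fold change 1.75), and Selenos, a selenoprotein of the same pathway, to 60.7 ± 3.47 CPM in D2, against 21.0 ± 1.35 CPM in NSC (1.53). The fall was that of Edem3, a mannosidase, at 56.9 ± 3.13 CPM in D2 and 106 ± 2.11 CPM in NSC (-0.90). Of 25 other ER folding and glycoprotein genes, 10 rose and 11 fell (median -0.06), with Fkbp14 (1.02) and Cnpy2 (0.91) as the largest rises and Uggt2 (-1.70) and Pdia5 (-1.18) as the largest falls. Of 25 genes of ER translocation and signal peptide processing, 4 rose and 12 fell (median -0.08), among them Spcs2 (1.02) and Ssr2 (0.42), which rose, and Srp54a (-1.40) and Ssr1 (-0.89), which fell.

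Of 14 genes in a list of eIF2 and eIF2B subunits, regulators of the kinases and related factors, 10 fell and 4 rose (median -0.35). The list includes genes that are not subunits, such as Eif2ak2, Ppp1ca and Eif2d, so these counts do not describe the subunits alone. Eif2s1, which encodes the phosphorylated subunit eIF2alpha itself, averaged 52.4 ± 3.72 CPM in D2 and 158 ± 3.77 CPM in NSC (SD, n = 3 each; log2 fold change -1.59, SE 0.06, edgeR adjusted p = 1.53e-10), and Eif2s2, the beta subunit, 72.1 ± 0.752 CPM in D2 and 260.3 ± 6.09 CPM in NSC (-1.85, SE 0.05, edgeR adjusted p = 2.4e-11). Eif2b4 and Eif2d each rose, with a log2 fold change of 0.48. Of 16 other regulators of the unfolded protein response, 8 rose and 6 fell (median 0.13). Crebrf (1.77) and Tmbim6 (0.99), a Bax inhibitor of the ER membrane, led the rises, and Mbtps2, the protease that makes the second cut in ATF6, and Yod1, a deubiquitinase, led the falls (-1.73 each). Of 9 apoptosis genes of the stress response, 2 rose and 3 fell (median -0.01), the rises being Bcl2l1 (0.28) and Bcl2 (0.27) and the larger falls Tnfrsf10b (-1.56) and Ero1l (-0.77). Ero1l, itself a gene of ER folding, also stands in the list of other ER folding and glycoprotein genes, so it was counted in both.

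**Figure D4:**
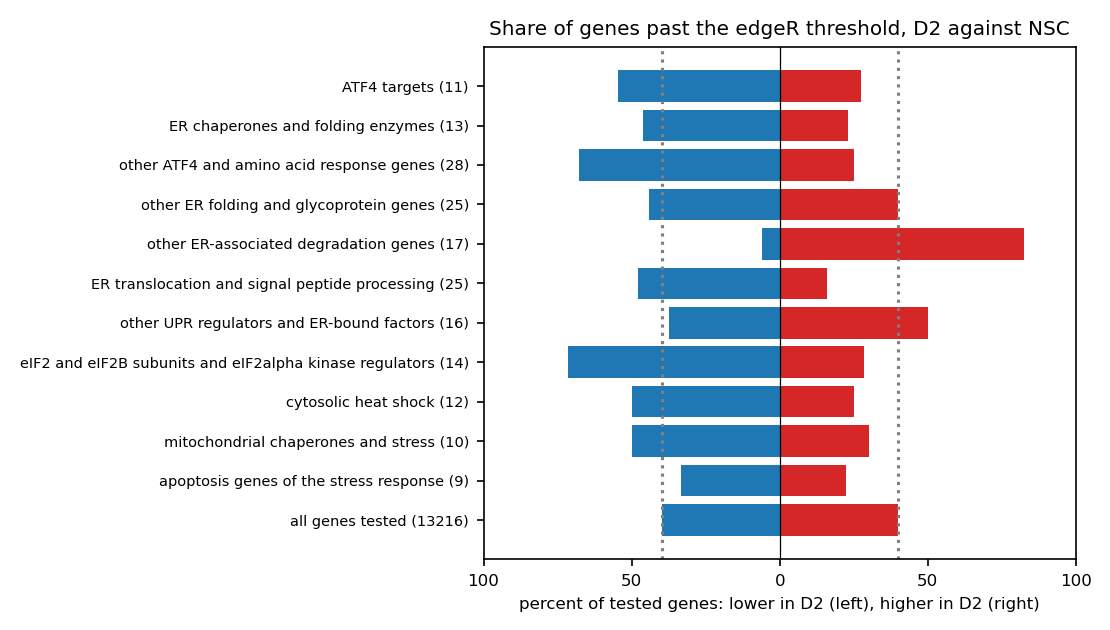
Bars give the percent of tested genes of each list that fell in D2 (blue, left) or rose in D2 (red, right) against NSC by edgeR, with the number tested in parentheses and dotted lines at the 40.0% and 39.8% of all 13216 genes. Other degradation genes stand out to the right with 14 of 17, and other ATF4 genes (19 of 28) and the eIF2 list (10 of 14) to the left.

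No change of these genes shared by both states was detected with either opioid ligand. With naloxone against control over both states, 0 of the 35 genes passed edgeR's adjusted threshold, 0 had an unadjusted p under 0.05, and DESeq2 and limma called 0. Of all 13216 genes, 2 passed (0.0151%) and 293 had an unadjusted p under 0.05. With DAMGO against control, edgeR called 0 of the 35 and 0 had an unadjusted p under 0.05, again with 0 for DESeq2 and limma, beside 2 of all genes (0.0151%) and 317 at an unadjusted p under 0.05. Calls were this rare among all genes tested, so 0 of 35 is near their share and not particular to these genes. The 2 comparisons share their control libraries, so values are given side by side only.

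The intervals show how large a shared change between these libraries could be. They rest on the scatter among the 6 libraries, which may be technical. Atf4 had a log2 fold change of -0.10 with naloxone (95% interval -0.24 to 0.03) and -0.06 with DAMGO (-0.20 to 0.08). For Hspa5 the values were 0.07 with naloxone (-0.08 to 0.22) and 0.00 with DAMGO (-0.15 to 0.15), and for Asns -0.07 with naloxone (-0.27 to 0.13) and -0.04 with DAMGO (-0.24 to 0.16). For Calr, which has more counts, the interval was -0.09 to 0.13 with naloxone and -0.08 to 0.14 with DAMGO. Trib3 was the least certain, at 0.78 with naloxone (-0.50 to 2.06) and 0.91 with DAMGO (-0.42 to 2.24).

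Within 1 state each ligand was compared as 1 library against 1, with no replicate check and no p; the exact binomial intervals given for count ratios cover counting error only. In D2, 1 of 35 genes differed by at least 1.5-fold with naloxone (background 6.69%) and 2 with DAMGO (6.76%). In NSC, 0 did with naloxone (3.78%) and 0 with DAMGO (4.43%). The genes past that fold in D2 were Trib3, with 2 counts with naloxone and 4 with DAMGO against 0 in control, and with DAMGO also Nupr1, with 1 count against 4, a ratio of 0.288 with an interval of 0.00586 to 2.91. The median log2 ratio of the 35 genes was 0.01 with naloxone and -0.03 with DAMGO in D2. In NSC it was -0.01 with naloxone and 0.00 with DAMGO. Over all genes tested the median was 0.00 in each pair.

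Among genes with at least 100 counts in both libraries, the largest difference was that of Atf5 in D2 with naloxone. It had 170 counts and 20.1 CPM with naloxone and 28.4 CPM with DAMGO, against 287 counts and 28.2 CPM in the D2 control, a count ratio for naloxone of 0.713 (interval 0.587 to 0.865). In NSC it had 47.9 CPM with naloxone and 50.0 CPM in control, a ratio of 0.958 (0.853 to 1.08). The difference between the states was not tested. In the same D2 pair the interval also left out 1 for the genes named next. How often it did so over all genes was not counted. As it covers counting error only, it can leave out 1 at small ratios in abundant genes. Atf4 had 145 CPM with naloxone and 163 CPM in control, a ratio of 0.888 (0.825 to 0.957). Psph (0.868) and Sesn2 (0.885) were also below 1. Dnajc3 had 58.4 and 46.6 CPM (1.25, 1.10 to 1.42) and Hspa5 had 509 and 455 CPM (1.12, 1.07 to 1.17). Creld2 (1.20), Atf6 (1.12), Pdia4 (1.08) and Hsp90b1 (1.08) were also above 1. With DAMGO in D2, the interval left out 1 for Phgdh, Psph and Hsp90b1. In NSC it did so for Hsp90b1 and Pdia3 with naloxone and for Hsp90b1 with DAMGO. The D2 libraries also differed in summed cell markers. With naloxone, DAMGO and control, proliferation markers summed to 362, 321 and 331 CPM, oligodendrocyte lineage markers to 6230, 6587 and 6997 CPM, and astrocyte markers to 6738, 6745 and 6917 CPM. Neuron markers summed to 1411, 1371 and 1267 CPM, neural stem cell markers to 5686, 6072 and 6037 CPM, and fibroblast and pericyte markers to 19.5, 19.0 and 36.4 CPM. Mki67 alone had 41.1 CPM with naloxone, 29.8 CPM with DAMGO and 22.4 CPM in control. The part of these in the differences above was not tested.

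**Figure D5:**
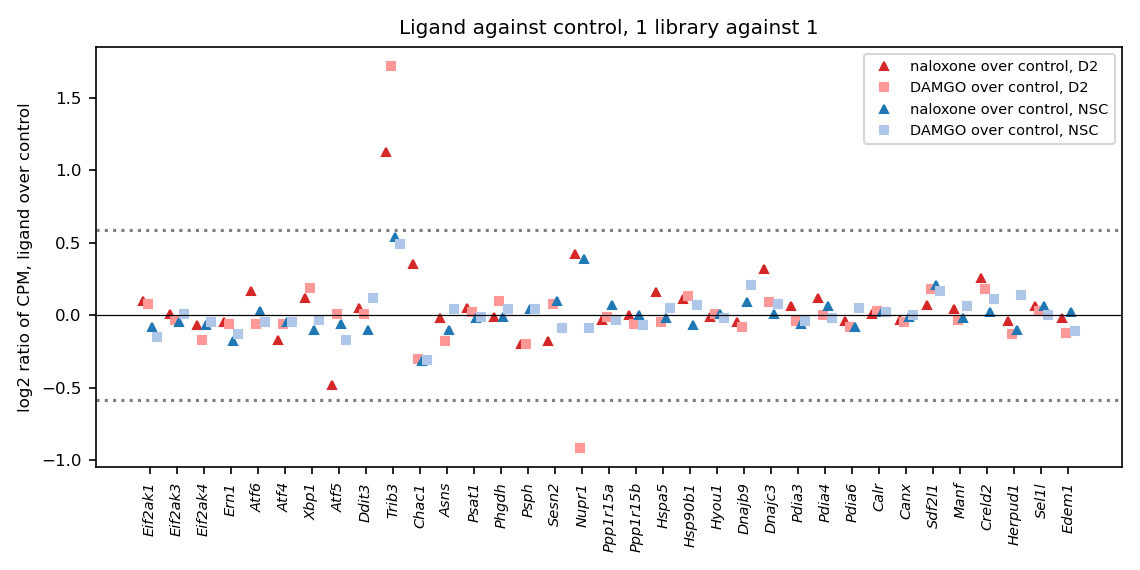
Each point is the log2 ratio of CPM (prior count 2) of ligand over control for 1 gene within a state, red shades for D2 and blue shades for NSC, triangles for naloxone and squares for DAMGO, with dotted lines at a 1.5-fold ratio. Apart from Trib3 and Nupr1 in D2, whose ratios rest on 0 to 5 counts a library, the points lie between the dotted lines, the lowest of them Atf5 in D2 with naloxone at -0.48.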

How the data were processed

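Libraries were made from Trizol-extracted total RNA with an Illumina TruSeq kit, per the labels' protocols, and this kit keeps no strand information. Per the submitters' processing notes, Bowtie, RSEM and the mm10 build were used; their versions, the annotation and any read filters were not stated in these sources. The authors deposited for each library an expected count, which divides reads that map to several genes, and a TPM value for each gene. Expected counts were rounded to whole numbers. Of 29267 Ensembl identifiers, 28756 matched GENCODE release M21, which gave symbols and mm10 coordinates. Expected counts were not whole for 6 of the 36 genes (tolerance 0.01): Eif2ak1, Atf5, Ppp1r15b, Hsp90b1, Pdia3 and Manf, whose levels depend on how shared reads were divided. Exonic bases also overlapped other genes in Ppp1r15b (11.4%), Manf (9.25%) and Eif2ak3 (8.05%), among others.

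Testing covered the 13216 genes that averaged 10 or more counts a library. Counts were scaled by TMM and fitted in edgeR 4.0.16 (R 4.3.3; glmQLFit, glmQLFTest) with state and ligand as additive terms and 2 residual degrees of freedom, which also hold any ligand effect that differs between states. P-values were adjusted by Benjamini-Hochberg over all genes tested. Alternatives used DESeq2 1.42.0, limma 3.58.1 on log2(TPM + 1), other scaling factors, no filter on low counts, no ligand term, and each library left out in turn; list sums without Hsp90b1 were added after seeing the data. Log2 ratios within a state were taken on TMM-scaled CPM, prior count 2, with exact binomial 95% intervals; 3 counts were taken as the limit that 0 counts allow. Depth was 8417074 to 13561237 counts a library. The scripts were tested on simulated counts with known changes.

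All 36 genes are named; of other lists, the 2 largest rises and 2 largest falls among called genes of at least 5 CPM, with exceptions said to be chosen after their values were seen. Cell markers named beside their lists were also picked as examples. The genes and lists were chosen with earlier results of these data known, so their counts are descriptions. The FPKM column was not used.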

Additional observations from a re-analysis of the deposited data

Results flagged for a closer look

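Hsp90b1 lay on opposite sides of its control with naloxone in the 2 states. Its log2 ratio of naloxone over control was 0.11 in D2, with 264 CPM with naloxone and 244 CPM in control, a count ratio of 1.08 with an exact 95% counting interval of 1.02 to 1.14. In NSC it was -0.07, with 717 CPM with naloxone and 752 CPM in control, a count ratio of 0.953 with an interval of 0.925 to 0.982. It drew attention because these intervals lie on opposite sides of 1. With DAMGO the count ratio was 1.10 (1.04 to 1.16) in D2, at 268 CPM, and 1.05 (1.01 to 1.08) in NSC, at 788 CPM. In D2 both ligand libraries thus lay above the control, so the D2 difference is not particular to naloxone. With 1 library per group, the difference between the states was not tested, and the intervals cover counting error only.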

How the results depend on the processing

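The count of changed genes in D2 against NSC was 29 of 35, and 23 to 29 under 12 alternatives, the lowest without the NSC naloxone library, where 33 of the 36 genes were tested; DESeq2 called 24, 8 higher and 16 lower. No called gene reversed in these alternatives. Of 417 values for single genes, 26 lost their call, all of Eif2ak4, Ern1, Atf6, Ddit3 or Herpud1, and 10 values of uncalled genes changed sign. With naloxone and with DAMGO, 0 genes were called under every alternative run. The median log2 fold change of ATF4 targets, -0.24, was -0.18 with upper-quartile factors, -0.58 with no filter, which adds Atf3, and -0.26 to -0.04 with 1 library left out (-0.04 over 9 genes; the same 9 had -0.09 with all libraries). That of ER chaperones, -0.17, was -0.11 with upper-quartile factors and -0.21 to -0.16 with 1 library left out. The summed ATF4 log2 ratio, -0.08, was -0.03 in TPM and 0.04 without Psat1, and the summed chaperone ratio, -0.31, was -0.23 in TPM, -0.45 without Calr and -0.11 without Hsp90b1, the last chosen after seeing the data. Genes past 1.5-fold within D2 numbered 0 with naloxone and 1 with DAMGO on log2(TPM + 1), and within NSC 1 with naloxone at a prior count of 0.5. The labels give no replicate numbers to use as a block; the ligand term already compares the states within each ligand condition, and without it 29 genes were called. Depth limits Trib3, Nupr1, Chac1 and Atf3 most.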

Other observations

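Chaperones outside the ER were read from 2 further lists, against the 40.0% of all genes tested that rose and the 39.8% that fell. By edgeR in D2 against NSC, 3 of 12 cytosolic heat shock genes rose and 6 fell (median log2 fold change -0.29), and 3 of 10 mitochondrial chaperone and stress genes rose and 5 fell (-0.22). Among genes that averaged at least 5 CPM, Hsph1 (log2 fold change 0.33) rose and Hspa4l (-0.79) fell in the first list, and Clpx (0.60) and Oma1 (0.32) rose and Yme1l1 (-1.86) fell in the second. All 4 HSP90 genes fell, a family looked at after the value of Hsp90b1 was seen. Hsp90aa1, the inducible cytosolic form, averaged 192 ± 19.7 CPM in D2 and 973 ± 31.5 CPM in NSC (SD, n = 3 each; log2 fold change -2.34, SE 0.05, edgeR adjusted p = 4.22e-12). Hsp90ab1, the constitutive form, averaged 1974 ± 42.8 CPM in D2 and 2570 ± 24.5 CPM in NSC (-0.38, SE 0.04, edgeR adjusted p = 1.02e-06), and the mitochondrial Trap1 99.2 ± 2.30 CPM in D2 and 122 ± 3.36 CPM in NSC (-0.30, SE 0.06, edgeR adjusted p = 3.08e-04). The mitochondrial chaperonin Hspd1 fell to 215 ± 3.25 CPM in D2, against 789 ± 16.1 CPM in NSC (-1.87, SE 0.05, edgeR adjusted p = 6.52e-12). Hsp90aa1 and Hsp90ab1 are close in sequence, and reads that map to both were divided in the deposited counts.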
